A study of Mus musculus with 20 samples.

Results

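The chromosome 9 Fbxw cluster is a row of F-box and WD-repeat genes of the mouse. The 10 genes described here were taken from a list of symbols (Fbxw13, Fbxw14, Fbxw15, Fbxw16, Fbxw18, Fbxw19, Fbxw20, Fbxw22, Fbxw24 and Fbxw26), chosen with the counts of these same libraries in view, and all 10 were found among the 49585 genes of the count tables. RNA-seq was done on whole ovaries of B6D2F1 mice, to ask which genes change when an oocyte transcription factor is missing. The Figla set held 4 Figla-/- (knockout) and 4 Figla+/- (control) libraries at embryonic day 18.5 (E18.5), and 3 of each at the day of birth (P0). The Lhx8 set held 3 Lhx8-/- and 3 control libraries at P0. Its controls are heterozygous in the genotype field and wild type in the library names. FIGLA is a basic helix-loop-helix factor and LHX8 a LIM-homeodomain factor, and both act in the oocytes that fill the ovary around birth.

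An F-box protein is the part of an SCF ubiquitin ligase that picks the protein to be marked. Its F-box holds on to the adapter SKP1, which sits on the cullin CUL1 with the RING protein RBX1, and its other end, here a set of WD repeats, binds the target. The single-copy relatives Fbxw7 and Fbxw11 work in this way in most tissues. The chromosome 9 genes are a rodent expansion of the family, and Fbxw15 and Fbxw24 have been described as genes of mouse oocytes. The targets of most copies are not known.

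In GRCm38, 15 genes named Fbxw lay side by side on the minus strand of chromosome 9, from 109139447 to 109790670, a stretch of 651 kb. The 10 members spanned 567 kb of it, from 109179227 (Fbxw13) to 109746089 (Fbxw26). Neighbouring copies stood 12081 to 38740 bases apart, with a median gap of 20984 bases. The other 5 copies in the row were Fbxw21, Fbxw23, Fbxw25, Fbxw27 and Fbxw28, and 9 more Fbxw genes lay elsewhere in the genome.

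The copies resemble each other in the transcript and before the start of transcription. Between the longest GENCODE M21 transcripts of the 10 members, identity ranged from 70.5% to 93.1% over the aligned bases of 45 pairs, with a median of 83.8%. The lowest value is that of Fbxw15 and Fbxw19. Fbxw19 aligned to the other members over 39 to 570 bases only, while all pairs without it aligned over 1449 bases or more. Of the members, 8 had an entry in the RefSeq promoter table (GRCm38.p6), and Fbxw13 and Fbxw22 had none. The 250 bases before the RefSeq start of these 8 genes were 84.7% to 96.4% identical over 28 pairs. The windows below are those of 3 members with many counts in control ovaries and of Fbxw20, whose window departs from the rest. All are on the minus strand and written 5′ to 3′. They cover chr9:109702701-109702950 for Fbxw18, chr9:109746090-109746339 for Fbxw26, chr9:109568263-109568512 for Fbxw15 and chr9:109234755-109235004 for Fbxw20, and capitals mark CAGCTG and TTTAAA.
Fbxw18: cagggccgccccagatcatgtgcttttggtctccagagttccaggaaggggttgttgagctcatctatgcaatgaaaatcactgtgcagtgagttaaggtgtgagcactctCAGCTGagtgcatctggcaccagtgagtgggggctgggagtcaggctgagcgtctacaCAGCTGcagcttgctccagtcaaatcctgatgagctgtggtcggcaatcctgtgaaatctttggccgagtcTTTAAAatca
Fbxw26: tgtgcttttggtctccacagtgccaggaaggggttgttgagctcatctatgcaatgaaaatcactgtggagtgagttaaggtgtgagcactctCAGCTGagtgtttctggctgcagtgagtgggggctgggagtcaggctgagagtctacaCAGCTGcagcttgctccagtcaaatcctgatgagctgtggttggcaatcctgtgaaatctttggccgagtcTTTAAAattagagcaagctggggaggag
Fbxw15: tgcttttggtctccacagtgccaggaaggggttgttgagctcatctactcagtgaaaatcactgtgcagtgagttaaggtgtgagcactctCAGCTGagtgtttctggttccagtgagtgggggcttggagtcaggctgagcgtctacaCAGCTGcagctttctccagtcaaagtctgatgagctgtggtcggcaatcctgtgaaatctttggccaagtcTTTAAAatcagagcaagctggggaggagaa
Fbxw20: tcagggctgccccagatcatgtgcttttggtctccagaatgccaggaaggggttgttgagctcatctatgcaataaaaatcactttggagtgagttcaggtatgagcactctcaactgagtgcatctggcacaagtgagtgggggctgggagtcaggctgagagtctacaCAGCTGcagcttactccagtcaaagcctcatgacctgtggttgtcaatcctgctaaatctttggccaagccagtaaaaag

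CAGCTG is one form of the E-box CANNTG, the core that basic helix-loop-helix factors bind, so each CAGCTG is also counted as a CANNTG. It occurred 2 times in the windows of 7 of the 8 members, together with 1 TTTAAA. Both are palindromes, so 1 match covers both strands. In these 7 windows the 2 CAGCTG lay 56 to 58 bases apart and the TTTAAA began 71 bases after the second one. In Fbxw18 they began at -139, -81 and -10, counted back from the RefSeq start, and in Fbxw26 at -157, -99 and -28. Fbxw20 held 1 CAGCTG, at -80, and no TTTAAA. Where the others have the first CAGCTG, its window reads CAACTG, which is also a CANNTG. It held 5 CANNTG in all, and the other 7 member windows held 2 to 4. The arrangement of those 7 windows was also found in 3 of the 4 unlisted copies with a window (Fbxw21, Fbxw25 and Fbxw28), and the Fbxw23 window had neither CAGCTG nor TTTAAA. That window lay at 109543190-109543439, away from the counted gene, which ends at 109534858. It aligned to no other window over more than 29 bases, so it is not matched to the others.

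Among 32851 RefSeq windows of the same length, 13.0% held at least 1 CAGCTG, 1.26% held 2 or more, 12.1% held TTTAAA and 66.2% held CANNTG. Windows with 2 CAGCTG and a TTTAAA made up 0.134%, or 44 windows of 39 genes, and 10 of these genes were the chromosome 9 Fbxw copies named above. CAGCTG and TTTAAA were picked by reading these windows, so their frequency here is a description. The homeodomain cores TAATTA and TAATTG, searched on both strands, were in none of the 8 windows (4.84% and 7.17% of all windows). TGATTG, the letters described for LHX8, was in the window of Fbxw16 alone (12.7% of all windows).

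Total counts were 5583392 to 13408022 per library in the Figla set and 8297204 to 9978350 in the Lhx8 set. The labels conflict for 6 of 14 Figla and 6 of 6 Lhx8 libraries, and groups follow the library names. The targeted gene checked this choice. Figla stood at 0.175 to 1.56 CPM (counts scaled to a common library total) in the 7 Figla knockout libraries and at 3.94 to 39.5 CPM in the 7 Figla control libraries. Lhx8 stood at 18.1, 31.0 and 23.0 CPM in Lhx8 knockouts and at 90.0, 101 and 89.4 CPM in Lhx8 controls. At E18.5, replicates 1 and 2 of each group were nearly identical (chi-square per degree of freedom 1.32 in knockouts and 1.12 in controls, against 6.62 to 62.3 for other pairs), and each such pair was summed and counted as 1 sample. The E18.5 control replicate 3 stood apart, with 3.94 CPM of Figla and 2.15 CPM of Nobox, another oocyte transcription factor, where the other E18.5 controls had 20.5 to 27.2 and 74.7 to 110.5 CPM. Knockout replicate 3 stood apart from the other E18.5 knockouts as well, with 9.48 CPM of Sohlh1, a further oocyte transcription factor, where they had 36.3 to 67.9 CPM, and with 6.52 CPM of Lhx8, where they had 18.1 to 44.7 CPM. In control replicate 3 these stood at 6.27 CPM of Sohlh1 and 6.45 CPM of Lhx8. Markers of pregranulosa cells, which surround oocytes in the ovary, summed higher in knockouts than in controls at P0. The sums were 2072 to 2307 CPM in Figla knockouts and 1401 to 1780 CPM in controls, and 1540 to 1699 and 1293 to 1415 CPM in the Lhx8 set. At E18.5 they overlapped, at 1963 to 2358 CPM in knockouts and 1735 to 2060 CPM in controls.

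Summed over the 10 members, the cluster was almost silent in knockout ovaries of both genes. In Figla knockouts at P0 it had 3, 3 and 3 counts, against 113, 152 and 278 counts in controls. In Lhx8 knockouts it had 2, 1 and 0 counts, against 512, 472 and 581 counts in controls. The groups did not overlap in either comparison. In Figla knockouts at E18.5 the members had 0, 0, 2 and 2 counts, against 37, 22, 1 and 73 counts in controls, and the groups overlapped through control replicate 3. All of these knockout counts were of Fbxw13 and Fbxw20, with 2 each, which had 3 and 2 counts in the E18.5 controls. The other 8 members had no count in E18.5 knockouts.

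**Figure D1:**
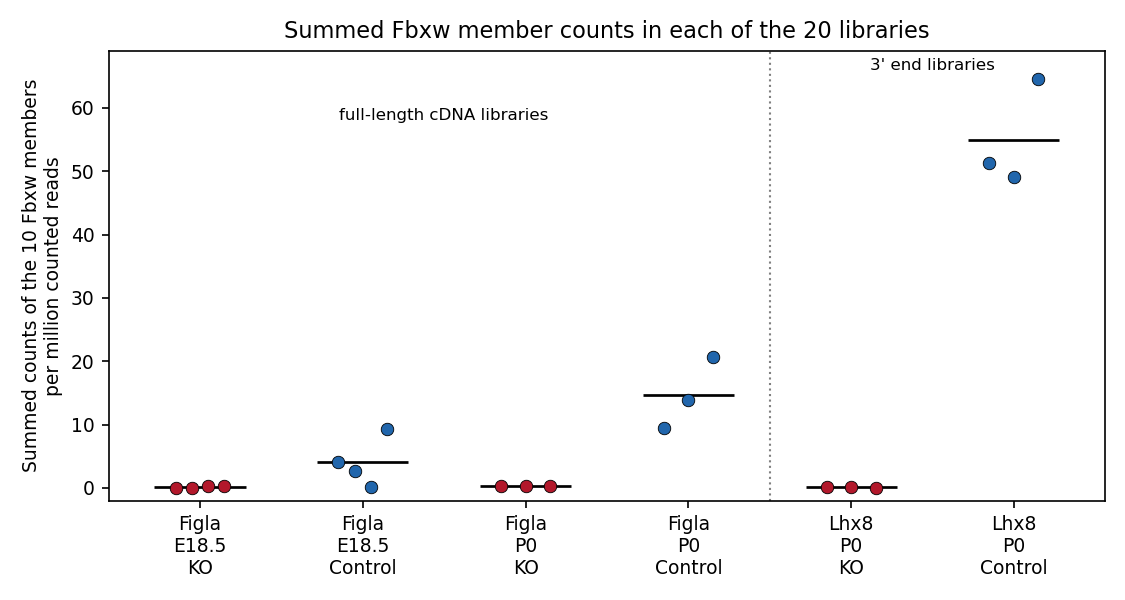
Summed CPM of the 10 members, of the total count (vertical axis, linear) in each of the 20 libraries (points), by group, with the group mean over libraries as a line. All knockout libraries lie at or near 0, P0 controls lie between 9.51 and 20.7 in the Figla set and between 49.0 and 64.6 in the Lhx8 set, and 1 of the 4 E18.5 controls lies at 0.179 among the knockouts.

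On scaled library sizes, the summed members averaged 0.266 ± 0.0297 CPM in Figla knockouts and 14.9 ± 5.94 CPM in controls at P0 (SD, n = 3 each). The control to knockout ratio of the scaled counts was 57.5 (95% counting interval 30.1 to 126). In the Lhx8 set the means were 0.0991 ± 0.0976 CPM in knockouts and 56.3 ± 8.08 CPM in controls (SD, n = 3 each), a ratio of 525 (179 to 2549). Without Lhx8 knockout replicate 1, which held 2 of the 3 counts, the ratio was 1000.0 (179 to 39540). At E18.5 the means were 0.203 ± 0.177 CPM in knockouts and 4.24 ± 4.53 CPM in controls (SD, n = 3 each), a ratio of 35.7 (13.6 to 133). That ratio was 14.2 without knockout replicate 1-2, 58.1 and 56.3 without knockout replicate 3 or 4, and 21.7 without control replicate 4. Without control replicate 3 it was 43.3 (16.5 to 161), and the groups no longer overlapped. These intervals cover counting error only. The members were chosen from these counts, so no test is given for them.

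In whole ovaries, fewer oocytes and less RNA per oocyte cannot be told apart. The germ cell markers Ddx4, Dazl, Mael, Sycp3, Stk31, Rnf17 and Tex101 give the values beside the cluster. In Figla ovaries at P0, 3 of these 7 were called lower by edgeR's quasi-likelihood test with Benjamini-Hochberg adjustment, and the 7 summed to 841.5 to 849.9 CPM in knockouts and 913.3 to 1169 CPM in controls. Ddx4, an RNA helicase of all germ cells, averaged 81.7 ± 6.68 CPM in knockouts and 146 ± 7.86 CPM in controls (log2 fold change -0.84, adjusted p = 3.876e-04). In Lhx8 ovaries 2 of the 7 were called lower, with sums of 498.8 to 575.7 CPM in knockouts and 526.6 to 701.2 CPM in controls. Of all genes tested, 10.9% were called lower in Figla ovaries at P0 and 7.29% in Lhx8 ovaries. Ddx4 fell more than most of the list. The median log2 fold change of the 7 was -0.154 in Figla ovaries at P0 and -0.1525 in Lhx8 ovaries. Mael and Tex101 went the other way in Lhx8 ovaries. Mael had 2067, 1943 and 1758 counts in knockouts and 1607, 1932 and 1467 counts in controls. Tex101 had 143, 135 and 84 counts in knockouts and 117, 92 and 53 counts in controls. None of the 7 was at 0 in any knockout group. Their part in the result was not tested.

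Of 6 markers of growing oocytes, 5 passed the filter on low counts at P0. These 5 were called lower in Figla and in Lhx8 knockouts, where 10.9% and 7.29% of all genes tested were called lower. Genes at or near 0 in knockouts, such as Zp2 and Zp3 in the Figla set, passed only through their control counts. They had to differ, so nothing is read from their calls. The 6 summed to 3.59 to 5.00 CPM in Figla knockouts and 189 to 763.3 CPM in controls, and to 2.05 to 25.7 CPM in Lhx8 knockouts and 414 to 546 CPM in controls. Zp3, a zona pellucida gene, had 0 counts in the 3 Figla knockouts and 116, 217 and 659 counts in the P0 controls, and Zp2 was at 0 in all 3 as well. In the Lhx8 set Zp3 had 1, 4 and 1 counts in knockouts and 298, 333 and 602 counts in controls. Zp2 had 1, 37 and 19 counts in these knockouts and 552, 702 and 653 counts in their controls. At E18.5 none of the 2 oocyte markers and 7 germ cell markers that passed the filter was called. There Zp3 had 0, 2, 1 and 0 counts in knockouts and 12, 13, 1 and 70 counts in controls, with control replicate 3 again among the knockouts.

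Markers of the other ovarian cells moved the other way or were not called. In Figla ovaries at P0, 4 of 5 stromal, 3 of 4 endothelial, 2 of 7 pregranulosa and 1 of 4 macrophage markers were called higher, and none of 5 red cell and 4 surface epithelium markers was called. In Lhx8 ovaries, 2 of 5 stromal, 1 of 7 pregranulosa and 1 of 4 surface epithelium markers were called higher, and no endothelial, macrophage or red cell marker was called. No marker of any list was called at E18.5, where edgeR called 1 gene in all (607 at an unadjusted p under 0.05) and DESeq2 117. The stromal markers summed to 4903 to 5573 CPM in Figla knockouts and 3345 to 4170 CPM in controls at P0. The part of these shifts in the members' values was not tested.

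**Figure D2:**
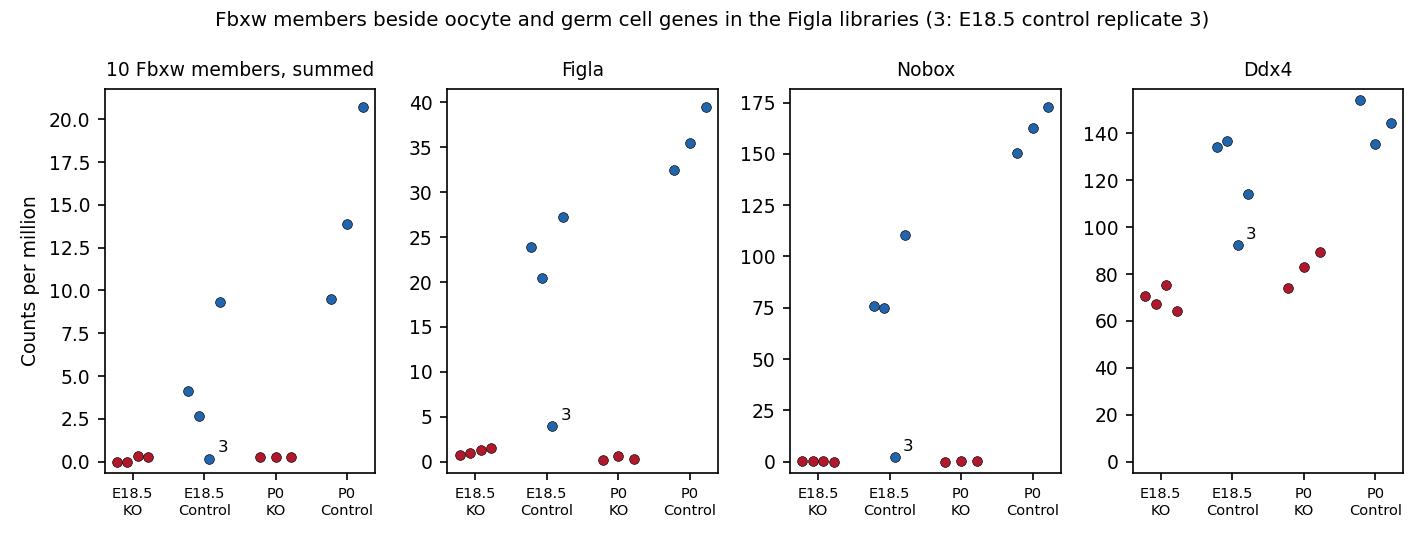
CPM of the total count (vertical axes, linear, 1 scale per panel) of the summed members, Figla, Nobox and Ddx4 in the 14 Figla libraries (points), by age and genotype. The E18.5 control marked 3 lies near the knockouts for the members, Figla and Nobox, while its Ddx4 (92.4 CPM) lies between the knockouts (64.2 to 75.3 CPM) and the other E18.5 controls (114 to 137 CPM). Other germ cell markers, not drawn, placed this library differently. Its Sycp3 (30.3 CPM) and Mael (91.0 CPM) lay below every E18.5 knockout, and its Dazl (157 CPM) lay among them. Its Stk31 (125.7 CPM), Rnf17 (108 CPM) and Tex101 (58.6 CPM) lay above every E18.5 knockout.

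Fbxw18 was the most abundant copy. In Figla ovaries at P0 it had 0, 0 and 0 counts in knockouts and 51, 62 and 91 counts in controls. With a floor of 3 counts over the group, it was at least 64.8-fold lower in knockouts (40.5 to 73.0 with 1 library left out). In Lhx8 ovaries it had 1, 0 and 0 counts in knockouts and 283, 269 and 338 counts in controls, a ratio of scaled counts of 896 (95% counting interval 160 to 35420). Without knockout replicate 1, which held the 1 count, it was at least 190-fold lower, and with another library left out the ratio was 584 to 945. At E18.5 it had no count in the 4 knockouts and 16, 9, 0 and 27 counts in controls. Its gene lies at 109676734-109702700 near the high-coordinate end of the row.

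Fbxw26 and Fbxw24 followed. Fbxw26 had 0, 0 and 0 counts in Figla knockouts and 15, 26 and 55 counts in controls at P0, at least 30.5-fold lower in knockouts (19.1 to 38.6 with 1 library left out). In the Lhx8 set it had no count in knockouts and 136, 138 and 154 counts in controls, at least 144-fold lower (91.2 to 149 with 1 left out). Fbxw24 had no count in Figla knockouts and 17, 31 and 48 counts in controls at P0, also at least 30.5-fold lower (19.1 to 37.7 with 1 left out). In the Lhx8 set it had no count in knockouts and 28, 25 and 57 counts in controls, at least 36.9-fold lower (23.4 to 43.1 with 1 left out). Neither gene had a count in any E18.5 knockout, while the E18.5 controls had 6, 5, 0 and 19 counts of Fbxw26 and 3, 3, 0 and 11 counts of Fbxw24.

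Fbxw15 and Fbxw14 were counted unequally by the 2 library kits. The Figla libraries cover whole transcripts, and the Lhx8 libraries read the 3′ end. Fbxw15 had 0, 0 and 0 counts in Figla knockouts and 16, 17 and 48 counts in controls at P0, at least 25.7-fold lower (16.1 to 31.0 with 1 left out), but in the Lhx8 set it had no count in knockouts and 0, 0 and 1 counts in controls. Its share of the members' counts in controls was 14.9% in the Figla set at P0 (Wilson 95% interval 12.2% to 18.2%) and 0.0639% in the Lhx8 set (0.0113% to 0.361%). Fbxw14 went the other way. It had 0, 0 and 0 counts in Figla knockouts and 1, 1 and 4 counts in controls at P0, and 1, 1 and 0 counts in Lhx8 knockouts against 29, 19 and 17 counts in controls, a ratio of 32.7 (95% counting interval 8.70 to 276). Kit and mouse line changed together between the sets and cannot be told apart.

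**Figure D3:**
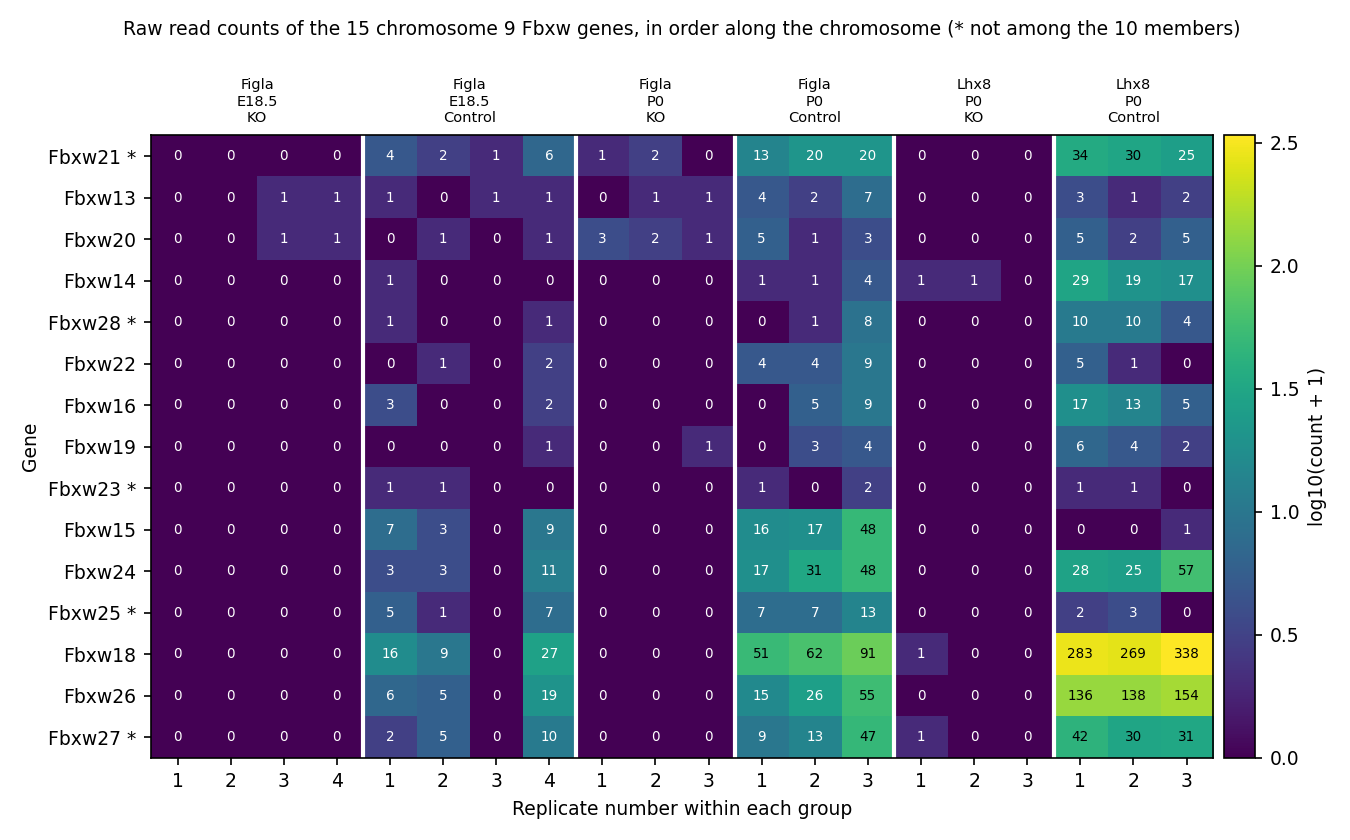
Raw read counts (numbers; colour is log10 of count + 1) of the 15 chromosome 9 Fbxw genes (rows, in order along the chromosome) in the 20 libraries (columns, knockouts left of their controls). The 6 lower rows hold most of the control counts, the Fbxw15 row is filled in Figla controls and nearly empty in Lhx8 controls, and E18.5 control replicate 3 holds 2 counts in all.

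Exons of other genes overlap 2 of the members. In the exons used for counting, the last 168 exon bases of Fbxw15 (109552602-109552769) are shared with Gm42756, a gene on the other strand, and the counts ignored strand. Gm42756 had 0 counts in Figla knockouts and 5 in controls at P0. Fbxw16 shares 210 exon bases with Gm42494 (109441051-109441260), none of them in its last 500. No other copy shares exon bases with another gene. Whether this overlap sets the low 3′ count of Fbxw15 was not tested.

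Near-identical copies can lose reads or pass them to each other, so each single count is uncertain. Cut into windows of 50 bases, 92.6% of the Fbxw18 transcript, 89.3% of Fbxw26 and 94.2% of Fbxw24 was found in the transcript of no other gene. In their last 500 bases the share was 100.0% for each of these 3 genes. For Fbxw14 it was 32.4% over the transcript and 41.5% over the last 500 bases, and it shared 1131 windows with the unlisted Fbxw28. The counts of Fbxw14 and Fbxw28 are therefore the least certain of the row. Fbxw16 (78.1%, and 96.5% in the last 500 bases) and Fbxw15 (83.0% and 73.4%) had the next lowest shares over the transcript among the members. Windows were matched on both strands. These 2 genes shared the most windows not with another copy but with the overlapping genes of the other strand. Fbxw15 shared 120 windows with Gm42756, and Fbxw16 shared 166 with Gm42494.

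**Figure D4:**
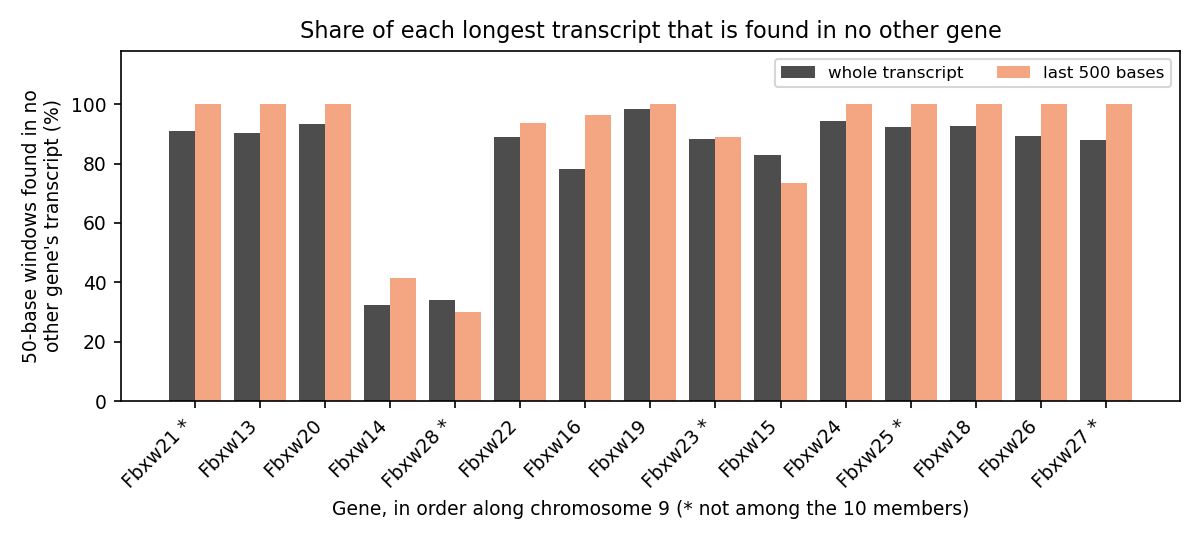
Share of 50-base windows of each gene's longest transcript that occur in no other gene (vertical axis, percent) over the whole transcript and over its last 500 bases, for the 15 copies in order along chromosome 9. Fbxw14 and its unlisted near-copy Fbxw28 stand at 29.9% to 41.5%, and every other copy stands at 73.4% or more.

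The other 5 members were counted at low levels. Fbxw22 had no count in Figla knockouts and 4, 4 and 9 counts in controls at P0, at least 5.40-fold lower (3.38 to 6.20 with 1 library left out). In the Lhx8 set it had no count in knockouts and 5, 1 and 0 counts in controls, and the groups overlapped. Fbxw16 had no count in either P0 knockout, against 0, 5 and 9 counts in Figla controls and 17, 13 and 5 counts in Lhx8 controls. It was at least 11.7-fold lower in Lhx8 knockouts than in their controls (7.46 to 14.8 with 1 left out), and the groups overlapped in the Figla set. Fbxw19 had 0, 0 and 1 counts in Figla knockouts against 0, 3 and 4 counts in controls, groups that overlapped, and 0 counts in Lhx8 knockouts against 6, 4 and 2 counts in controls, at least 4.03-fold lower (2.56 to 4.92 with 1 left out). Fbxw13 had 0, 1 and 1 counts in Figla knockouts against 4, 2 and 7 counts in controls, a ratio of 6.19 (95% counting interval 1.40 to 56.5).

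Fbxw20 was low in Figla ovaries of both genotypes. At P0 it had 3, 2 and 1 counts in Figla knockouts and 5, 1 and 3 counts in controls, a ratio of 1.43 with a 95% counting interval of 0.454 to 4.88 (0.954 to 1.92 with 1 library left out). The groups overlapped, and the interval runs from a higher level in knockouts to a 4.88-fold lower one. In the Lhx8 set it had 0 counts in knockouts and 5, 2 and 5 counts in controls, at least 4.03-fold lower (2.56 to 5.07 with 1 left out), without overlap. It is the member whose promoter window holds 1 CAGCTG and no TTTAAA, though it holds 5 CANNTG. Any link between the window and these counts was not tested. Whether the 2 knockouts differ in Fbxw20 was not tested.

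Few members passed the filter on low counts. In Figla ovaries at P0, 4 of 10 did (Fbxw15, Fbxw18, Fbxw24 and Fbxw26) and all 4 were called lower, where 10.9% of the 17321 genes tested were called lower. Every knockout lay below every control for 7 of the 10, where the same held for 12.9% of genes with a count. In Lhx8 ovaries 4 passed (Fbxw14, Fbxw18, Fbxw24 and Fbxw26) and 4 were called lower, against 7.29% of the 15274 genes tested, and 8 of the 10 did not overlap, against 12.3% of genes with a count. At E18.5 none passed and none was free of overlap, against 0.0062% of genes called lower and 3.57% without overlap. A gene that passed only through its control counts had to differ, and the members were chosen on these values, so nothing is read from these counts.

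Among controls of the Figla set at P0, levels were set side by side as CPM per kb of exon. Fbxw18 stood at 3.68 ± 0.823 (SD, n = 3), above every sample of the next member. Fbxw24 (1.76 ± 0.734), Fbxw15 (1.45 ± 0.825) and Fbxw26 (1.42 ± 0.785) followed and did not differ beyond their spread. The other 6 members stood lower. Fbxw22 (0.249 ± 0.101), Fbxw13 (0.229 ± 0.112), Fbxw16 (0.209 ± 0.190), Fbxw20 (0.101 ± 0.0682), Fbxw14 (0.0747 ± 0.0575) and Fbxw19 (0.0547 ± 0.0475) overlapped with their neighbours in that order, and all of their samples lay below those of the first 4. The unlisted Fbxw27 (0.973 ± 0.791), Fbxw21 (0.601 ± 0.150) and Fbxw25 (0.492 ± 0.139) had means between those of Fbxw26 and Fbxw22.

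The abundant copies lay together. The 6 genes from Fbxw15 to Fbxw27, at the high-coordinate end of the row, held 81.4% of the counts of all 15 copies in Figla controls at P0, 82.2% in Figla controls at E18.5 and 86.0% in Lhx8 controls. This division of the row was made after the values were seen. Fbxw18 alone gave 32.7% to 45.1% of the members' counts in each Figla P0 control and 55.3% to 58.2% in each Lhx8 control.

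**Figure D5:**
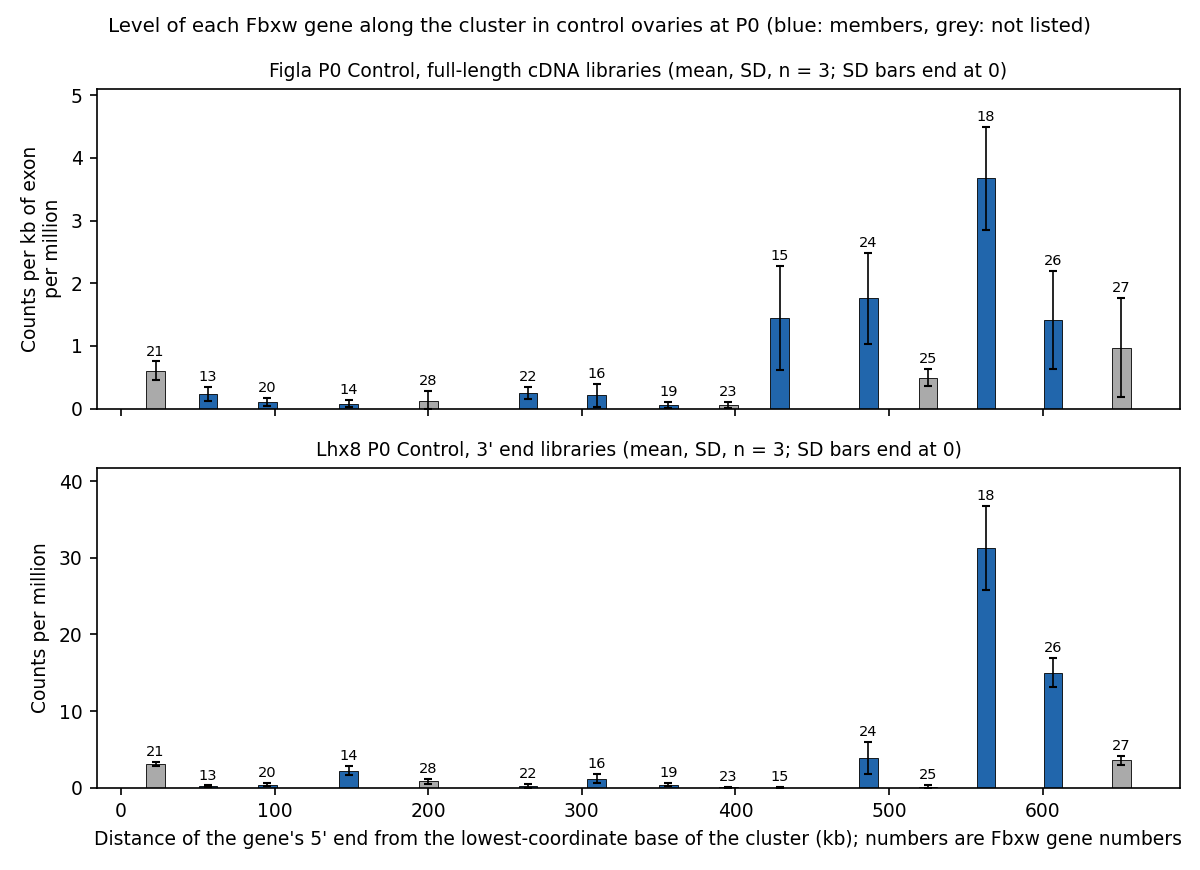
Level of each of the 15 copies in P0 controls against its distance along the cluster (horizontal axis, kb), as CPM per kb of exon in the Figla set (upper panel) and as CPM, not per length, in the Lhx8 set (lower panel). Bars are means of 3 libraries with the SD. Fbxw18 is the tallest bar in both panels, and Fbxw15 is tall in the upper panel only.

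Control ovaries held on average more of the cluster at P0 than at E18.5, where age and any difference in preparation cannot be told apart. The summed members averaged 15.3 ± 6.12 CPM at P0 and 4.23 ± 4.55 CPM at E18.5 (SD, n = 3 each), a P0 to E18.5 ratio of 3.64 (95% counting interval 3.01 to 4.44). It was 6.01 without E18.5 control replicate 4, which held 73 of the 133 counts, and 2.80 without P0 control replicate 3. Without E18.5 control replicate 3 its log2 was 1.58. The ages nearly touched, with 9.33 CPM of the total count in E18.5 control replicate 4 and 9.51 CPM in P0 control replicate 1. Summed over all 15 copies, the samples of the 2 ages overlapped. Fbxw18 had 51, 62 and 91 counts at P0 and 16, 9, 0 and 27 counts at E18.5, a ratio of 3.50 (2.57 to 4.84). Of the 10 members, 6 were higher in every P0 control than in any E18.5 control sample, where 9.39% of genes with a count were. edgeR called 0 of 18379 genes higher here (0.0%) and 0 lower, with 4254 at an unadjusted p under 0.05, and DESeq2 called 1547. The same direction was seen for Zp3, with 116, 217 and 659 counts at P0 and 12, 13, 1 and 70 at E18.5.

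Of the 5 copies outside the list, Fbxw21 and Fbxw27 had the most counts. In Figla ovaries at P0, Fbxw21 had 1, 2 and 0 counts in knockouts and 13, 20 and 20 counts in controls, a ratio of 16.8 (95% counting interval 5.45 to 84.2). In Lhx8 ovaries it had 0, 0 and 0 counts in knockouts and 34, 30 and 25 counts in controls, at least 29.9-fold lower (19.0 to 31.5 with 1 library left out). Fbxw27 had 1, 0 and 0 counts in Lhx8 knockouts and 42, 30 and 31 counts in controls, a ratio of 104 (95% counting interval 18.2 to 4134). Without knockout replicate 1, which held the 1 count, it was at least 21.95-fold lower. In the Figla set at P0 Fbxw27 had no count in knockouts and 9, 13 and 47 counts in controls. The groups did not overlap in any of these. Like the members, these copies could pass the filter only through their control counts, so no test is given for them. Both lie at the outer ends of the row, outside the interval of the listed members.

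The remaining copies were rare. Fbxw25 had no count in Figla knockouts and 7, 7 and 13 counts in controls at P0, and no count in Lhx8 knockouts against 2, 3 and 0 counts in controls. Fbxw28 had no count in Lhx8 knockouts and 10, 10 and 4 counts in controls. Fbxw23, annotated as a pseudogene, had at most 2 counts in any library.

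No gene flanking the row or lying between its copies was called. Outside it, Plxnb1, a semaphorin receptor gene, averaged 257 ± 14.5 CPM in Figla knockouts and 209 ± 40.4 CPM in controls at P0 (log2 fold change 0.30, adjusted p = 0.169 by edgeR). In Lhx8 ovaries it averaged 117 ± 5.54 CPM in knockouts and 100.4 ± 22.5 CPM in controls (adjusted p = 0.438). Of the 13 neighbours, 3 passed the filter in each knockout comparison and none was called. Gm43209, on the plus strand at 109702934-109704521 beside the start of Fbxw18, had 0 counts in each of the 3 knockout groups, against 10 counts in E18.5 controls, 11 in Figla P0 controls and 10 in Lhx8 controls. It did not pass the filter.

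The single-copy relatives moved by smaller folds than the cluster. Of the 9 Fbxw genes on other chromosomes, 8 were tested in Figla ovaries at P0 and 1 was called. The share of all genes tested that were called lower was 10.9% there and 7.29% in Lhx8 ovaries. Fbxw7, which targets cyclin E and Notch for destruction, averaged 85.0 ± 5.78 CPM in knockouts and 123 ± 8.45 CPM in controls (log2 fold change -0.53, adjusted p = 0.00606). In Lhx8 ovaries 7 were tested and Fbxw17 was called, at 29.1 ± 5.40 CPM in knockouts and 50.6 ± 13.6 CPM in controls (log2 fold change -0.80, adjusted p = 0.0452). That call was lost without knockout replicate 2 or 3 or control replicate 1 or 3 (adjusted p = 0.0954 to 0.173 by edgeR). The median log2 fold change of the tested relatives was -0.17 in Figla ovaries and -0.31 in Lhx8 ovaries, beside 0.02 and 0.05 over all genes tested. The 9 relatives summed to 603.4 to 676.1 CPM in Figla knockouts and 719.7 to 761.4 CPM in controls at P0. In the Lhx8 set the sums were 389.5 to 447.8 CPM in knockouts and 471.2 to 529.7 CPM in controls.

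Some genes of the SCF list fell. It held 18 genes, those of the ligase, of its control by NEDD8 and of further F-box proteins, not all of them parts of the ligase. All were tested, and 7 were called lower and 0 higher in Figla ovaries at P0, where 10.9% of all genes tested were called lower. Skp1a, which encodes the adapter that F-boxes bind, averaged 173 ± 5.44 CPM in knockouts and 355 ± 87.7 CPM in controls (log2 fold change -1.04, adjusted p = 0.00120). Fbxo43, the F-box gene Emi2 that holds eggs in meiosis, averaged 1.58 ± 0.144 CPM in knockouts and 6.40 ± 1.44 CPM in controls (log2 fold change -2.01, adjusted p = 0.00104). Cdc34, the ubiquitin-conjugating enzyme of the SCF, had a log2 fold change of -0.79 and Dcun1d1, a NEDD8 ligase factor, one of -0.97. Cul1 had a log2 fold change of -0.04 (adjusted p = 0.809 by edgeR) with 192 ± 7.43 CPM in knockouts and 197 ± 15.4 CPM in controls. The other 3 calls were those of Rbx1, Nae1 and Ccnf (adjusted p = 0.0260, 0.0375 and 0.0427 by edgeR). Those of Rbx1 and Nae1 were lost without any 1 knockout or without control replicate 1 or 3 (adjusted p = 0.0553 to 0.132). That of Ccnf was lost without any 1 knockout or without control replicate 3 (adjusted p = 0.101 to 0.132).

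In Lhx8 ovaries 2 of the 18 were called lower and 0 higher, a share near the 7.29% of all genes tested that were called lower. Skp1a averaged 242 ± 34.2 CPM in knockouts and 400.1 ± 20.4 CPM in controls (log2 fold change -0.72, adjusted p = 0.00968, and 0.0599 without control replicate 2). Cdc34 averaged 54.1 ± 1.97 CPM in knockouts and 75.7 ± 4.98 CPM in controls (log2 fold change -0.48, adjusted p = 0.0359). The Cdc34 call was lost without knockout replicate 2 or 3 or any 1 control (adjusted p = 0.0659 to 0.151) and with the replicate number as a block (adjusted p = 0.0891). None of the 18 was called at E18.5. The median log2 fold change of the list was -0.30 in Figla and -0.22 in Lhx8 ovaries at P0, beside 0.02 and 0.05 over all genes.

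The genes outside the family most like the summed members over the 12 Figla samples were Th, Rbakdn, Kdm1b, Mctp2 and Wdr36. Their Pearson r of log2 CPM ranged from 0.989 to 0.995 among 18379 genes. These samples share genotype groups, and the value describes them only. Th, the gene of tyrosine hydroxylase, summed to 4 counts in knockouts and 1630 counts in controls at P0, and to 3 counts in knockouts and 317 counts in controls at E18.5. Kdm1b, a histone demethylase gene needed in oocytes for DNA methylation marks, summed to 1791 counts in knockouts and 23125 counts in controls at P0.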

How the data were processed

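RNA-seq counts of 20 whole-ovary libraries were used, at 5583392 to 13408022 counts each. The authors deposited raw counts per gene, made per the file headers by featureCounts 1.6.0 with the GENCODE M12 genes. Strand was not used in counting and the headers set no multi-mapping option. The submitters' processing notes name cutadapt, HISAT2 and the build GRCm38.p5. Tool versions: not given in the sources used here. The Nextera kit made the Figla libraries and the QuantSeq 3′ kit those of Lhx8, per the labels' protocols.

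Groups follow the library names, which conflict with the titles for 12 libraries. Counts were tested with edgeR 4.0.16 in R 4.3.3 (filterByExpr with minimum count 10 and total 15, TMM scaling, quasi-likelihood test, Benjamini-Hochberg adjustment over all genes tested, threshold 0.05), each knockout against its controls and age in 1 model of the Figla samples. DESeq2 1.42.0, other scaling, no filter, left-out libraries, grouping by title and a replicate block were alternatives. Mean CPM use scaled library sizes. A group at 0 was set to a floor of 3 counts for a bound on the fold, and ratios of counts have exact 95% intervals. The labels name no animals or litters, and the p-values therefore rest on the spread of libraries that may be technical repeats in part.

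The members and the lists were chosen with earlier results of these data known. The genes named outside the members were the other Fbxw genes, the genes within and flanking the row, an SCF list, cell markers, the targeted genes and the 5 genes with the highest correlation. Lhx8 replicate numbers did not pair the samples (correlations of deviations -0.154, 0.047 and 0.038). Promoter windows are from RefSeq (GRCm38.p6) and transcripts from GENCODE M21, while the counts use M12.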

Additional observations from a re-analysis of the deposited data

How the results depend on the processing

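The summed members' log2 ratio was computed under the alternatives other than the replicate block, and its sign changed only in groupings by title. With so few counts in knockouts, scaling or filter could not turn the sign, so nothing is read from its holding. With 1 library left out, the knockout to control log2 ratio ranged from -5.86 to -3.83 (Figla, E18.5), -6.10 to -5.45 (Figla, P0) and -9.97 to -8.55 (Lhx8). That of P0 over E18.5 in controls ranged from 1.49 to 2.59. Grouped by title, the knockout to control log2 ratio was 0.87 at E18.5, -0.0062 in Figla ovaries at P0 and 9.04 in the Lhx8 set, where each label is reversed. Titles also turned Fbxw21 to 7.90, Fbxw27 to 6.24, Fbxw17 to 0.80, Skp1a to 0.72, Cdc34 to 0.48 and Ddx4 to 0.94 on the log2 scale in the Lhx8 set, and Skp1a to 0.0095, Dcun1d1 to 0.084, Rbx1 to 0.069 and Ccnf to 0.34 in Figla ovaries at P0.

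The number of genes called moved more. At E18.5 it was 1, and 229 with no filter, 117 by DESeq2, 1093 by title, 1082 with agreeing labels only, 34 with near-identical libraries kept apart, 53 with all Figla groups in 1 model and 0 to 89 with 1 sample left out (89 without control replicate 3). In Figla ovaries at P0 it was 2767, and 0 by title by edgeR (507 at an unadjusted p under 0.05), 1835 with agreeing labels only, 1363 with all Figla groups in 1 model and 1423 to 2882 with 1 left out. For Lhx8 it was 1582, and 2682 with no filter, 630 to 1490 with 1 left out and 931 with the replicate block, which among Fbxw17, Skp1a, Cdc34 and Ddx4 changed the call of Cdc34 alone and was not read for other genes. For age it was 0, and 1252 with no filter, 1547 by DESeq2, 1426 by title, 1231 with agreeing labels only, 1490 with near-identical libraries kept apart and 0 to 556 with 1 left out. The cause of these differences was not tested.

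No paired analysis was run for the Figla comparisons, because their labels state no pairs and their library names share no replicate numbers. The names alternate control and knockout, and replicate 3 of both E18.5 groups was low in Sohlh1 and Lhx8. Whether neighbouring libraries share a block was not tested. At these depths, 6 members had at most 17 counts over the Figla P0 controls, so single-copy folds there are weak, and a count of 0 in a knockout group allows up to 3 counts.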
